A study of Homo sapiens with 6 samples.

Results

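Genes that promote or suppress ferroptosis were followed here, with the acyl-CoA synthetase gene ACSL4 set against the acyltransferase gene MBOAT1. The list held 10 genes, chosen by their known roles and by the log2 differences of ACSL4 and MBOAT1 between the genotypes, and 6 of them had a probe set that the platform annotation used here names, out of 14884 genes named in that way. ACSL4, LPCAT3 and NCOA4 were the 3 measured promoters of 4 listed, and MBOAT1, GPX4 and DHODH were the 3 measured suppressors of 6 listed. TFRC, MBOAT2, SLC7A11 and AIFM2 were not analysed here. Each measured gene had 1 probe set.

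The samples were MDA-MB-231 cells, an established human breast carcinoma line of the triple-negative type, after 72 h with 200 µM H2O2. The genotypes were Control and NR1D1 KO, with 3 arrays each and 6 in all, and both carried the peroxide treatment, so no untreated level was at hand. NR1D1 encodes REV-ERBα, a heme-binding nuclear receptor that represses transcription. The labels do not say how the knockout was made or what the Control cells carry. The titles call the arrays of a genotype biological replicates, with nothing on whether they came from separate cultures or from more than 1 knockout clone, so the tests rest on array-to-array variation that may be partly technical.

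Ferroptosis is a form of cell death in which polyunsaturated chains of membrane phospholipids are peroxidized in the presence of iron. ACSL4 and LPCAT3 place such chains in phospholipids, the transferrin receptor TFRC and the ferritin receptor NCOA4 supply iron, and GPX4 reduces lipid peroxides with glutathione made from cystine that SLC7A11 imports. AIFM2 and DHODH keep ubiquinone reduced in separate compartments, and MBOAT1 and MBOAT2 place monounsaturated chains in phospholipids instead.

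The deposited values were taken to be log2 probe set summaries, with array medians between 5.18 and 5.22. NR1D1 had 0 named probe sets, so the knockout was not checked by its transcript. Of 14884 genes, 9.49% had an adjusted p under 0.05 in limma, with p-values adjusted by Benjamini and Hochberg's method, 4.74% higher and 4.74% lower in NR1D1 KO, and the median log2 difference over all genes was 0.0039. The count of 1412 genes past the threshold was 789, 859 and 723 without control replicate 1, 2 or 3 and 813 without NR1D1 KO replicate 2. Of 8 markers chosen for the line 7 were measured, and all 7 lay above the median of every array. Those medians were taken over all 53617 probe sets, of which 37519 had no named gene. KRT8, the dimmest of the 7, had a mean level above 61.9% of named genes. ESR1 and PGR, the hormone receptor genes that triple-negative cells lack, had means of 5.19 and 3.99 in control arrays. ESR1 was close to the array medians, with a mean level above 30.4% of named genes, and PGR stood above 11.3%. Of the 7 line markers 4 passed the threshold (57.1% against 9.49% of all genes): VIM (0.34, adjusted p = 0.0337, limma), KRT18 (0.35, adjusted p = 0.0439) and KRT19 (0.41, adjusted p = 0.0441) were higher in NR1D1 KO arrays and CD44 (-0.35, adjusted p = 0.0324) was lower. Of 6 measured luminal markers EPCAM was higher (0.40, adjusted p = 0.0286) and GATA3 lower. Of 5 leukocyte markers 2 were measured, CD14 and CD68. CD14 had means of 4.95 in control and 4.66 in NR1D1 KO arrays, below the array medians, and CD68 had means of 10.87 and 10.42. CD68, which carcinoma cells can also express in lysosomes, was lower (adjusted p = 0.0167, limma) and CD14 had an adjusted p of 0.085. Of 5 fibroblast markers 2 were measured, LUM with means of 5.26 in control and 5.39 in NR1D1 KO arrays and DCN with 2.57 and 2.59. The part of these markers, and of other cells, in the results was not tested.

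Of the 6 measured genes ACSL4 was lower, MBOAT1 was higher and the other 4 did not pass the threshold, which 9.49% of all genes passed. ACSL4 and MBOAT1 were selected on this same comparison, so their differences, and the counts over the 6 genes, are a description and carry no test. The values of the groups did not overlap for 4 of the 6 genes and for 28.7% of all genes.

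ACSL4 encodes the synthetase that activates arachidonic and adrenic acid to their CoA esters. Its log2 values were 10.33, 10.34 and 10.45 in control and 9.45, 9.46 and 9.50 in NR1D1 KO arrays. Every control array lay above every NR1D1 KO array, and the gap of 0.83 between the nearest arrays was wider than the spread inside either group, which was 0.12 and 0.053. The means were 10.37 ± 0.068 and 9.47 ± 0.028 (SD, n = 3 each), a difference of -0.90 (standard error 0.078, 95% interval -1.08 to -0.72) or 1.87-fold lower.

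The 250 bases before the ACSL4 start are shown because ACSL4 is the only measured member past the threshold in the lower direction and has a RefSeq promoter entry (GRCh38.p14, chrX:109733258-109733507, minus strand). The window was searched on both strands for AGGTCA, the core of the element that REV-ERB receptors bind, and for TGACNNNGC, the core of the antioxidant response element, and held neither.
ACSL4: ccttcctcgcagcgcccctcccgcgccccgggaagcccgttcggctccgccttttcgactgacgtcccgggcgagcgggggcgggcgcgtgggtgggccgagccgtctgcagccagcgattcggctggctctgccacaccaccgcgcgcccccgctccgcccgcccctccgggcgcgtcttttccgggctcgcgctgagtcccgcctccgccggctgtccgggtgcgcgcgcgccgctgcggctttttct
Of 35116 promoter windows of this length in the table, 12.1% held AGGTCA and 10.9% held TGACNNNGC. The table gave 11 windows for 8 of the 10 genes, with 3 for GPX4, of which 2 overlap, and 2 for NCOA4. MBOAT1 and SLC7A11 had no entry. Only 1 of the 11 windows held AGGTCA, before a start of NCOA4, and 1 held TGACNNNGC, before AIFM2. The 30 bases around each match are shown with the match in capitals, which in both is the reverse complement of the motif.
NCOA4 (chr10:46020220-46020249, minus strand): ctccagagTGACCTcttaacggtcatgctt
AIFM2 (chr10:70132828-70132857, minus strand): cagcacgagtGCTGAGTCAcgccccgcccg
These matches and misses describe letters in these windows and were set against no binding data.

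LPCAT3 encodes the acyltransferase that transfers polyunsaturated chains from CoA to lysophospholipids, the step after ACSL4. Its log2 values were 8.77, 8.69 and 8.60 in control and 8.49, 8.50 and 8.53 in NR1D1 KO arrays. The groups did not overlap, but the nearest arrays were only 0.078 apart, less than the 0.16 between the highest and lowest control array. The difference of -0.18 (standard error 0.079) did not pass the threshold, with a 95% interval from -0.36 to 0.0031.

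NCOA4 encodes the receptor that carries ferritin to autophagy and so releases its iron. It measured 9.89, 9.89 and 9.97 in control and 10.00, 10.02 and 9.85 in NR1D1 KO arrays. The groups overlapped, with an NR1D1 KO array both highest and lowest, and the difference of 0.036 (standard error 0.083, 95% interval -0.15 to 0.23) did not pass.

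MBOAT1 encodes a membrane-bound acyltransferase that prefers oleoyl chains and lysophosphatidylethanolamine or lysophosphatidylserine. Its log2 values were 5.56, 5.93 and 5.80 in control and 8.18, 8.15 and 7.91 in NR1D1 KO arrays. All 3 NR1D1 KO arrays lay above all 3 control arrays, with a gap of 1.98 between the nearest, against a spread of 0.37 and 0.27 inside the groups. The means were 5.76 ± 0.19 and 8.08 ± 0.15 (SD, n = 3 each), a difference of 2.32 (standard error 0.12, 95% interval 2.04 to 2.60) or 4.99-fold higher. No detection calls were at hand, and the control level was close to the array medians, where the floor of an array can make a fold too small.

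GPX4 encodes the selenium-containing peroxidase that reduces phospholipid hydroperoxides inside membranes. Control arrays measured 10.12, 10.13 and 10.05 and NR1D1 KO arrays 9.78, 9.91 and 10.17. The groups overlapped, because NR1D1 KO replicate 3 was the highest of all 6, and the difference of -0.14 (standard error 0.11, 95% interval -0.39 to 0.10) did not pass. It was -0.25 without that replicate and -0.058 without NR1D1 KO replicate 1, and passed in neither case.

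DHODH encodes the mitochondrial enzyme of pyrimidine synthesis that passes electrons to ubiquinone. Control arrays measured 6.75, 7.03 and 6.87 and NR1D1 KO arrays 7.04, 7.36 and 7.31. The lowest NR1D1 KO array lay only 0.013 above the highest control array. The difference of 0.35 (standard error 0.11, 95% interval 0.092 to 0.61) did not pass the threshold after adjustment over all genes.

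By role, the 3 measured promoters had log2 differences of -0.90, -0.18 and 0.036 (median -0.18), and the 3 measured suppressors 2.32, -0.14 and 0.35 (median 0.35). Both sides held 1 gene past the threshold and 2 that were not, and both held a gene on the other side of 0, NCOA4 among the promoters and GPX4 among the suppressors. The genes past the threshold were ACSL4 and MBOAT1, which were selected on this comparison, so the split by role follows in part from that choice. Of all genes 9.49% passed.

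**Figure D1:**
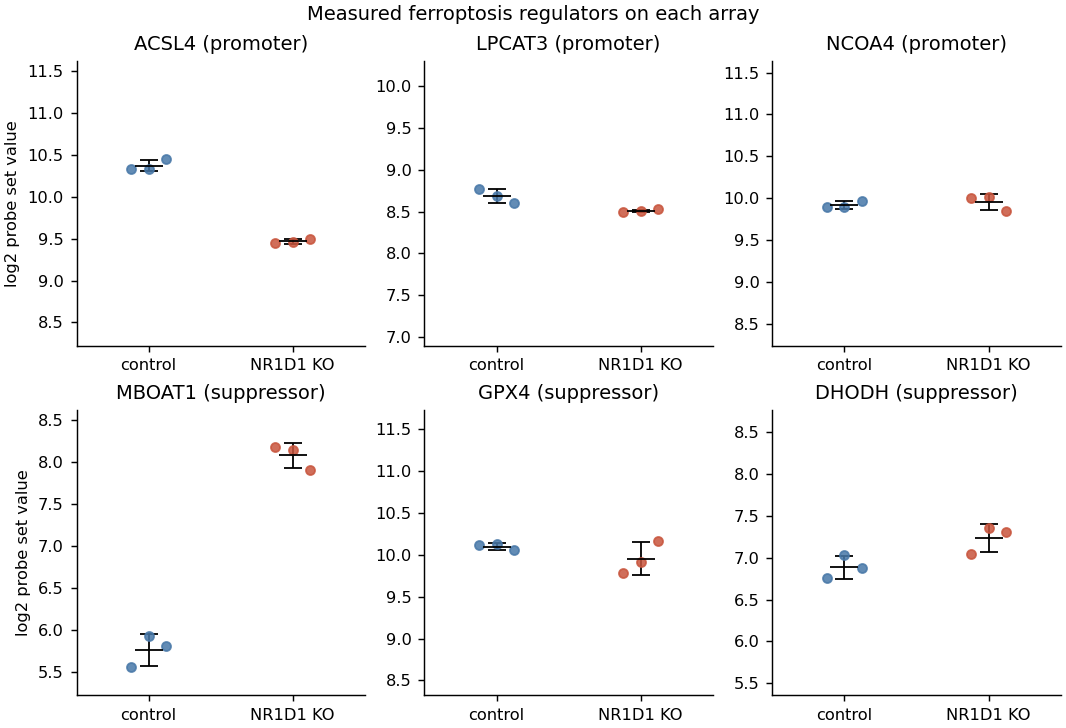
Log2 probe set values of the 6 measured ferroptosis regulators on the 3 control and 3 NR1D1 KO arrays, with the mean and SD of each group in black, on axes of the same span. ACSL4 fell from about 10.37 to 9.47 and MBOAT1 rose from 5.76 to 8.08, while NCOA4 and GPX4 overlapped between genotypes.

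Relatives of ACSL4 and of the MBOAT enzymes moved in both directions. The list held enzymes that activate fatty acids or transfer acyl chains, 31 in number, of which 18 were measured. Of these 4 fell and 2 rose (33.3% past the threshold, against 9.49% of all genes), and the median log2 difference was -0.042, or 0.013 without NR1D1 KO replicate 1. With any 1 control replicate, or NR1D1 KO replicate 2 or 3, left out the falls were 2, and the rises were 1 without control replicate 1 or NR1D1 KO replicate 2 or 3.

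The synthetase genes of this list that passed, ACSL1 and ACSL5, were lower. ACSBG2 (0.33, adjusted p = 0.145, limma), ACSL6 (0.070, adjusted p = 0.749) and ACSBG1 (-0.0032, adjusted p = 0.991) did not pass. ACSL1, which activates long-chain fatty acids for storage and oxidation, measured 9.01, 9.09 and 9.10 in control and 7.69, 7.90 and 7.88 in NR1D1 KO arrays. That is a difference of -1.24 (standard error 0.088, adjusted p = 0.000141, limma). ACSL5, a synthetase of mitochondria and endoplasmic reticulum, measured 9.94, 9.95 and 9.98 against 9.63, 9.62 and 9.51. The groups did not overlap for either gene, as for 28.7% of all genes, and ACSL5 differed by -0.37 (standard error 0.077, adjusted p = 0.0216). The call of ACSL5 was lost without any 1 control replicate or without NR1D1 KO replicate 2 or 3. ACSL3, which activates monounsaturated chains, was not analysed here.

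Among acyltransferase genes LPCAT1 rose, MBOAT7 and DGAT1 fell, and LPCAT2 and LPCAT4 did not pass. LPCAT1, which makes saturated phosphatidylcholine, measured 7.57, 7.80 and 7.86 in control and 8.17, 8.29 and 8.26 in NR1D1 KO arrays (difference 0.50, standard error 0.098, limma adjusted p = 0.017). The call of LPCAT1 was lost without control replicate 1 or without NR1D1 KO replicate 2 or 3. MBOAT7, which puts arachidonic acid into phosphatidylinositol, measured 8.84, 8.95 and 8.96 against 8.58, 8.57 and 8.60 (difference -0.34, standard error 0.077, adjusted p = 0.0312). The call of MBOAT7 was lost without any 1 of the 6 arrays. DGAT1, an MBOAT-family enzyme of triglyceride synthesis, measured 8.30, 8.19 and 8.23 against 7.58, 7.69 and 7.66 (difference -0.59, standard error 0.078, adjusted p = 0.00276). The groups overlapped for none of these 3 genes, and the same held for 28.7% of all genes. HHAT, the MBOAT-family enzyme that palmitoylates Hedgehog proteins, rose by 0.53 (standard error 0.092, adjusted p = 0.00992), from 6.57 ± 0.091 to 7.10 ± 0.11 (SD, n = 3 each). LPCAT2 differed by 0.21 (adjusted p = 0.193) and LPCAT4 by 0.035 (adjusted p = 0.881).

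**Figure D2:**
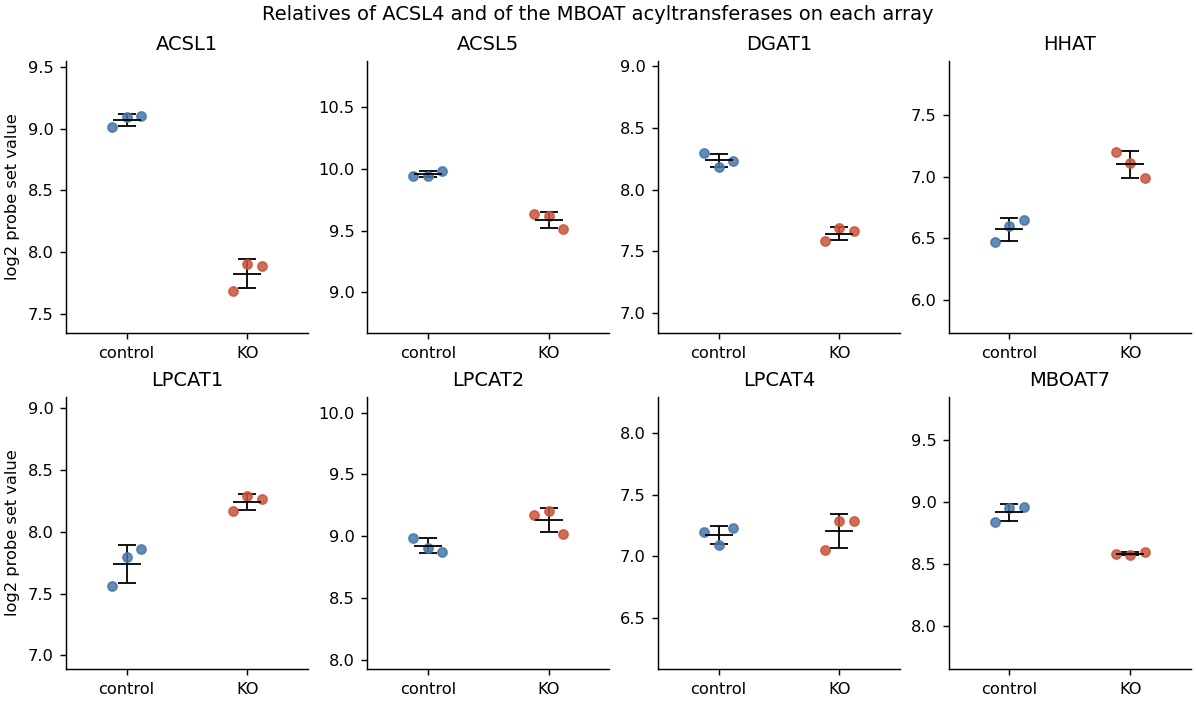
Log2 probe set values of 8 relatives of ACSL4 and of the MBOAT enzymes on each control and NR1D1 KO (KO) array, with the mean and SD of each group in black, on axes of the same span. ACSL1, ACSL5, DGAT1 and MBOAT7 were lower in the knockout, HHAT and LPCAT1 higher, and LPCAT2 and LPCAT4 did not pass the threshold. ACSL5, MBOAT7 and LPCAT1 lost their calls in some fits without 1 array.

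Further genes that promote lipid peroxidation did not share 1 direction. Of 26 listed 20 were measured, with 2 falls and 1 rise, 12 below and 8 above 0 and a median log2 difference of -0.041. The share past the threshold was 15%, against 9.49% of all genes. TMEM164, an acyltransferase that builds ether phospholipids with polyunsaturated chains, measured 8.18, 7.997 and 8.19 in control and 7.39, 7.28 and 7.28 in NR1D1 KO arrays, a fall of 1.75-fold (log2 difference -0.80, standard error 0.088, limma adjusted p = 0.00118). SAT1, which acetylates the polyamines spermidine and spermine, measured 7.52, 7.50 and 7.47 against 6.75, 6.97 and 7.12 (difference -0.55, standard error 0.10, adjusted p = 0.0139), and missed the threshold without control replicate 1. The lipoxygenase gene ALOX5 went the other way, from 6.07, 5.70 and 5.87 to 6.53, 7.23 and 7.06, a 2.09-fold rise (difference 1.06, standard error 0.18, adjusted p = 0.00873). The groups did not overlap for any of these 3 genes, as was so for 28.7% of all genes.

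Further suppressors of lipid peroxidation also went both ways. Of 34 listed 15 were measured, with 3 falls and 1 rise, 9 below and 6 above 0 and a median log2 difference of -0.10, so that the medians of these longer promoter and suppressor lists were both below 0. Of the measured suppressors 26.7% passed the threshold, against 9.49% of all genes. Leaving out any 1 control replicate or NR1D1 KO replicate 2 gave 1 fall. TXNRD1, the cytosolic thioredoxin reductase, measured 9.90, 9.81 and 9.97 in control and 9.24, 9.37 and 9.30 in NR1D1 KO arrays (difference -0.59, standard error 0.083, limma adjusted p = 0.0036). SCD, the desaturase that makes the monounsaturated chains MBOAT1 uses, measured 12.19, 12.21 and 12.18 against 11.92, 11.79 and 11.69 (difference -0.39, standard error 0.086, adjusted p = 0.0271). Its dimmer probe set differed by -0.79, and the mean of both by -0.59. The call of SCD was lost without any 1 control replicate or without NR1D1 KO replicate 2 or 3. CISD1, an iron-sulfur protein of the outer mitochondrial membrane, fell by 0.32 (adjusted p = 0.0453), and missed the threshold without any 1 of the 6 arrays. COQ4, needed for ubiquinone synthesis, measured 7.34, 7.30 and 7.36 against 7.79, 8.04 and 7.83 (difference 0.55, standard error 0.090, adjusted p = 0.0075). GCH1, which makes the radical-trapping cofactor tetrahydrobiopterin, differed by -0.37 and did not pass (adjusted p = 0.0796).

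In the glutathione and selenium list, which surrounds SLC7A11 and GPX4, 1 gene fell and 1 rose of 16 measured out of 28, with a median log2 difference of -0.058, or 0.0086 without NR1D1 KO replicate 1. The share past the threshold was 12.5%, against 9.49% of all genes. CTH, whose product makes cysteine from cystathionine, measured 7.63, 7.70 and 7.61 in control and 6.11, 6.32 and 6.30 in NR1D1 KO arrays, with a gap of 1.29 between the nearest arrays. It fell 2.65-fold (log2 difference -1.40, standard error 0.088, limma adjusted p = 9.43e-05). TRIT1, which modifies transfer RNAs including the one for selenocysteine, rose by 0.36 (standard error 0.085, adjusted p = 0.0349), and missed the threshold without any 1 control replicate or without NR1D1 KO replicate 2 or 3. The falls were 2 without NR1D1 KO replicate 3. SLC3A2, the partner chain of SLC7A11, and CHAC1, which degrades glutathione, were not analysed here.

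Of 27 iron genes, the setting of TFRC and NCOA4, 13 were measured, with 2 falls, 1 rise and a median log2 difference of 0.041. Of those measured 23.1% passed the threshold, against 9.49% of all genes. PROM2, whose product promotes the export of ferritin, fell by 0.50 (standard error 0.12, limma adjusted p = 0.0337), and HMOX1, which frees iron from heme, fell by 0.37 (standard error 0.085, adjusted p = 0.0329). PCBP1, an iron chaperone that loads ferritin, rose by 0.35 (standard error 0.080, adjusted p = 0.0325). The rise was lost without any 1 of the 6 arrays. The falls were 1 without control replicate 3 or NR1D1 KO replicate 3 and 0 without any other single array. FTH1 was not analysed here.

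Of 27 transcription regulators tied to these genes 20 were measured, with 3 falls, 2 rises and a median log2 difference of -0.065. The share past the threshold was 25%, against 9.49% of all genes. GATA3, a luminal transcription factor, measured 7.60, 7.38 and 7.45 in control and 6.78, 6.75 and 6.72 in NR1D1 KO arrays (difference -0.73, standard error 0.085, limma adjusted p = 0.00166). TEAD1 and TEAD4, DNA-binding partners of YAP, rose by 0.41 (adjusted p = 0.0329) and 0.35 (adjusted p = 0.0493). ATF3, a stress factor that can repress SLC7A11, fell by 0.37 (adjusted p = 0.0461), and EPAS1, which encodes HIF-2α, fell by 0.32 (adjusted p = 0.0495). Without any 1 array only 1 fall was left, and the rises were 0 without any 1 control replicate or NR1D1 KO replicate 1 and 1 without NR1D1 KO replicate 2 or 3. NFE2L2, which encodes the antioxidant regulator NRF2, differed by -0.056 (adjusted p = 0.745). ESR1, which encodes the estrogen receptor that drives MBOAT1 in receptor-positive breast cells, measured 5.27, 5.15 and 5.14 against 5.43, 5.20 and 4.93 (difference 0.00083, standard error 0.13, 95% interval -0.29 to 0.29, adjusted p = 0.998). PTGS2, a transcript often read as a marker of ferroptosis, differed by 0.21 (standard error 0.14, adjusted p = 0.425). Its means of 3.36 in control and 3.58 in NR1D1 KO arrays lay below the array medians, where the floor of an array can make a difference too small.

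Over the 6 lists together, 23 of 102 measured genes passed the threshold, 15 lower and 8 higher, with a median log2 difference of -0.048. That is 22.5% against 9.49% of all named genes, a share that was not tested. The lists were not matched to all genes in level. With the dimmest 25% of genes left out, 1771 genes were called in all, against 1412 with every gene. Of the 23 genes, 9 kept the call under all 12 alternatives of processing or leaving out an array. These were ACSL1, DGAT1, HHAT, TMEM164, ALOX5, TXNRD1, COQ4, CTH and GATA3.

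**Figure D3:**
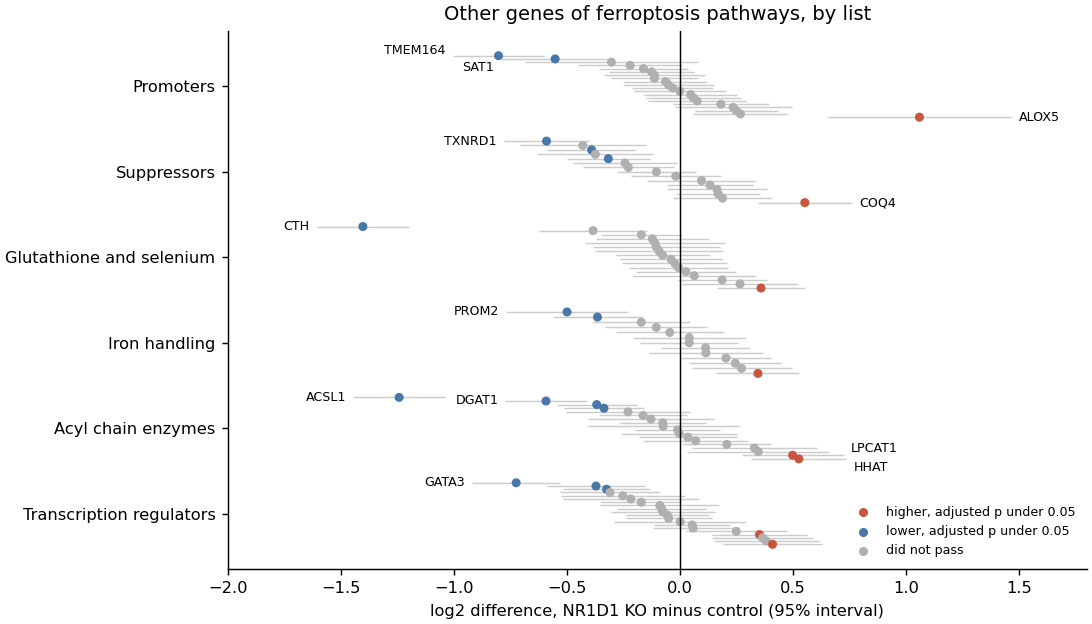
Log2 difference of each measured gene between NR1D1 KO and control arrays (x axis, with its 95% interval) in the 6 lists (y axis), colored by whether it passed an adjusted p of 0.05; genes past the threshold with a difference above about 0.5 in size are named. Every list held genes on both sides of 0, and CTH, ACSL1 and ALOX5 lay farthest out.

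The genes next to ACSL4 and MBOAT1 on their chromosomes were set beside them. Of the 20 measured protein-coding genes closest to ACSL4 on chromosome X, 10 on each side in RefSeq order, 13 were below 0 and 7 above, 4 fell and none rose (limma), and the median log2 difference was -0.094. The nearest on one side was TMEM164, and the other 3 falls, named after their values were seen, were ALG13 (-0.63, adjusted p = 0.00276), RBM41 (-0.54, adjusted p = 0.0274) and MID2 (-0.36, adjusted p = 0.0296). None of the 20 was as low as ACSL4. Of 11450 protein-coding genes with 20 such neighbours, 10.5% had a neighbour median as low. Of the 20 genes closest to MBOAT1 on chromosome 6, 14 were above 0 and 6 below, 4 rose and none fell, and the median was 0.17, a value that 3.63% of genes reached. The rises, also named after their values were seen, were SOX4 (0.95, adjusted p = 0.00107), CDKAL1 (0.48, adjusted p = 0.0237), E2F3 (0.37, adjusted p = 0.0482) and DEK (0.32, adjusted p = 0.0489), and none was as high as MBOAT1. MBOAT1 lay 2.15 above its neighbours' median and ACSL4 0.81 below. Both genes were selected for their differences in this comparison, so lying beyond their neighbours follows in part from that choice. Beside the 4 of 20 called around each gene, 4.74% of all genes fell and 4.74% rose. The part of neighbouring regions in the 2 differences was not tested. LPCAT3, at -0.18, had neighbours with a median of 0.14. Around the members that did not pass, GPX4 had 3 neighbours higher and 1 lower, DHODH 2 higher, LPCAT3 1 of each and NCOA4 1 higher.

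**Figure D4:**
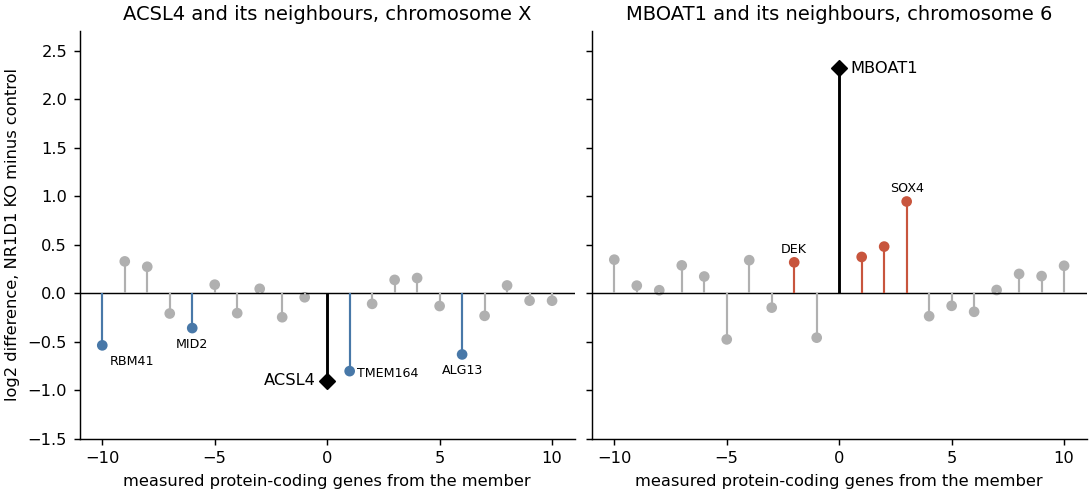
Log2 difference between NR1D1 KO and control arrays (y axis) of ACSL4 and MBOAT1 (black diamonds) and the 10 nearest measured protein-coding genes on each side (x axis, in gene order), colored red where higher and blue where lower at an adjusted p of 0.05. The 4 called neighbours of ACSL4 were lower and the 4 of MBOAT1 higher, and none reached the size of ACSL4 or MBOAT1, which were selected on this comparison.

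The genes with the profile most like each were found by the root mean square distance between log2 profiles over the 6 arrays, each centred on its own mean. Of 11915 other protein-coding genes, ABHD4 (0.025), LRIG1 (0.031) and ADGRF5 (0.042) lay closest to ACSL4, where the median distance was 0.47. They differed between genotypes by -0.90, -0.90 and -0.92 on the log2 scale. NEO1 (0.089), RHOJ (0.13) and CACHD1 (0.21) lay closest to MBOAT1, where the median distance was 1.17, and differed by 2.42, 2.29 and 2.37. With 2 groups of 3 arrays, such a distance mostly reflects the size of the difference between genotypes.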

How the data were processed

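GeneChip whole-transcript kits were used to copy and label the RNA of 6 samples (per the labels' protocols). The deposited table of the authors holds values between 1.16 and 13.75, a range from which they were taken to be log2. The arrays were taken to be normalized to each other, since their medians lie between 5.18 and 5.22. Which software, background correction and genome build were used is not given in the sources used here. Of 53617 probe sets 16098 had 1 gene symbol in the platform annotation, none had several and 37519 had none, and all 16098 matched a RefSeq gene identifier. The probe set with the highest mean stood for a gene, which left 14884 genes, with no filter on level.

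All genes were fitted at once with lmFit and eBayes of limma 3.58.1 (R 4.3.3, two-sided), with Benjamini-Hochberg adjustment and a threshold of 0.05. The fit was tested on simulated data. Intervals are at 95%, and the number of arrays limits the precision. Alternatives were other normalizations, the mean of a gene's probe sets, a filter on dim genes, another prior, a replicate block and leaving out each array. The 10 genes and the lists were chosen with earlier results of these data known. Genes named are the 10, up to 6 called genes of each list with the largest difference, or the 2 of smallest p if the list had no call, and some fixed relatives where measured. Protein sequences were not used here, and a planned comparison of protein identity was not made. Figures used matplotlib 3.10.9 in Python 3.11.15.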

Additional observations from a re-analysis of the deposited data

How the results depend on the processing

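ACSL4 and MBOAT1, which were selected on this comparison, differed by -0.92 to -0.86 and 2.22 to 2.40 when single arrays were left out, given as a description, and LPCAT3, NCOA4, GPX4 and DHODH passed under none of the 12 alternatives. Leaving out single arrays gave 723 to 1049 called genes in all (336 to 518 higher and 387 to 531 lower). Without NR1D1 KO replicate 1 the median log2 differences of the glutathione and selenium list and of the acyl chain enzymes changed sign, to 0.0086 and 0.013. By list, over the 6 fits that each left out 1 array, the rises and falls were 1 to 1 and 1 to 2 for promoters, 1 to 1 and 1 to 2 for suppressors, 0 to 1 and 1 to 2 for glutathione and selenium, 0 to 0 and 0 to 1 for iron, 1 to 3 and 2 to 3 for acyl chain enzymes, and 0 to 1 and 1 to 1 for regulators. Fits on 5 arrays have fewer samples, and the cause of other changes was not tested. Same-numbered arrays of the 2 genotypes deviated from their group means with correlations of 0.055, 0.068 and -0.11, and 2 of 6 arrays correlated best with their own number, so the numbers were not taken to pair the arrays. With the replicate block 1050 genes were called, the rises were 0 for glutathione and selenium, 0 for iron and 0 for regulators, and the falls were 1 for suppressors, 1 for iron, 2 for acyl chain enzymes and 1 for regulators. A prior with trend and robust settings gave 3 rises among promoters, 5 falls among suppressors and 2 falls in glutathione and selenium. Leaving out the dimmest 25% of genes gave 5 falls among suppressors and 2 in glutathione and selenium. Quantile normalization of the deposited values gave 2 falls in glutathione and selenium and 1 rise among regulators, and centring on array medians 4 rises and 1 fall among regulators. LPCAT4 and ESR1, which were not called, changed sign without single arrays (full ranges -0.0062 to 0.11 and -0.12 to 0.13), LPCAT4 at -0.0058 without control replicate 2, -0.0032 without NR1D1 KO replicate 2 and -0.0062 without NR1D1 KO replicate 3, and ESR1 at -0.02, -0.022, -0.12 and -0.0075 without control replicate 2 or 3 or NR1D1 KO replicate 1 or 2.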
